A study of Drosophila melanogaster with 4 samples.

Results

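The telomere-proximal 1 Mb of 4 chromosome arms of Drosophila melanogaster held 383 of the 12660 regions enriched for HP2 in third-instar larvae. The regions, here called clusters, are those of a deposited list that covers the replicates jointly, the combined list. A cluster was taken when its midpoint lay at or below position 1000000 on 2L, 3L or X, or above position 26905053 on 3R, where the assembled telomeric end is position 27905053. Positions are on FlyBase release 5. The choice used position only and no measured value. Each cluster was then compared with the separate cluster lists of the ChIP libraries, and counted as present in a library when it shared at least 1 bp with one of its clusters. The 383 clusters comprised 107 on 2L, 114 on 3L, 84 on 3R and 78 on X.

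HP2 is encoded by Su(var)2-HP2 and associates with HP1a, the heterochromatin protein that recognises methylated histone H3 and packages pericentric sequence. Drosophila chromosome ends carry no telomerase repeats. They are maintained by the retrotransposons HeT-A, TART and TAHRE, they are capped by a protein complex that includes HP1a, and next to the retrotransposon arrays lie repetitive telomere-associated sequences that can silence inserted genes. Proximal to these repeats the arms are gene-rich euchromatin. On 2L the tumour suppressor gene l(2)gl is the outermost protein-coding gene in RefSeq's Release 6 annotation, and on 3R it is Map205, which encodes a microtubule-associated protein. That annotation is of another build, so no cluster was assigned to a gene.

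All 4 libraries came from nuclei of wild-type Oregon-R larvae at the third instar, with no treatment. The 2 ChIP libraries were precipitated with the HP2 antibody Ab2-90, and the 2 input libraries each served as the input for the ChIP library of the same number. Chromatin was made from homogenised larval tissue, so the values are averages over cell types. The sources used here give neither the sex of the larvae nor whether the replicates were separate collections, so the spread between replicates may be technical. Replicate 1 had 4092 clusters, 106 of them in the terminal windows, and replicate 2 had 7017, of which 185 lay there. The terminal windows thus held 2.59% of the replicate 1 clusters (95% exact binomial interval 2.13 to 3.12%), 2.64% of the replicate 2 clusters (2.27 to 3.04%) and 3.03% of the combined clusters (2.73 to 3.34%), on 2.86% of the assembled sequence without Uextra. Read depth is unknown, as the lists give no counts of reads, and the intervals cover counting error only.

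**Figure D1:**
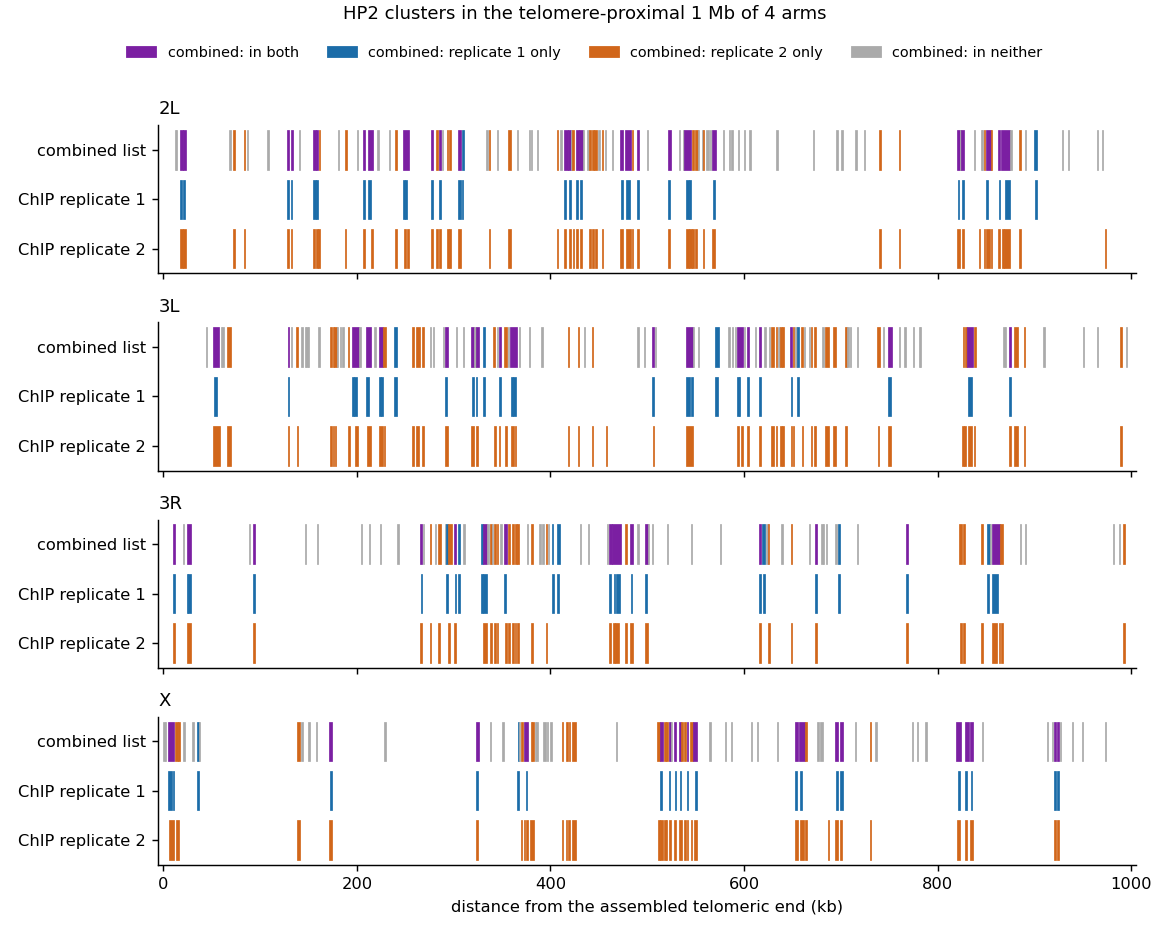
Positions of HP2 clusters by distance from the assembled telomeric end (kb) on 2L, 3L, 3R and X, with the combined list above and the ChIP replicates below it. Colours in the combined list show overlap with the replicate lists. Clusters present in both replicates recur in groups separated by stretches with none, a pattern that the map does not compare with the rest of each arm.

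Cover, the percentage of sequence under clusters, was moderately higher in the terminal windows than in the bodies of the same arms. The body of an arm is the arm without its telomere-proximal 1 Mb and its centromere-proximal 3 Mb. Over the 4 arms together cover was 5.78% of the terminal windows in replicate 1 and 10.7% in replicate 2, against 4.43% and 8.73% of the bodies. The fold of windows over bodies was 1.30 in replicate 1 and 1.22 in replicate 2, with a mean of 1.26 ± 0.06 (SD, n = 2). The density of clusters gave a similar value, with 26.5 and 46.25 clusters per Mb in the windows and 21.8 and 38.6 in the bodies, a fold of 1.21 ± 0.01 (SD, n = 2). Both folds differed from 1 by more than the spread between replicates. That spread describes how far the 2 lists agree, not how 1 Mb windows vary along an arm. Single 1 Mb windows of the 2L body, for example, had a mean cover from 1.15 to 14.9%. No test was run, because an exact two-sided sign-flip permutation test over 2 replicates cannot give a p under 0.5. The covered sequence in the 4 windows came to 231 kb in replicate 1, 426 kb in replicate 2 and 796 kb in the combined list.

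The arms were not alike. On 2L the terminal window had 6.89% in replicate 1 and 12.5% in replicate 2, and the 2L body 4.31% and 7.75%, a fold of 1.61 ± 0.01 (SD, n = 2). On 3L the window had 6.40% and 12.7% and the body 4.62% and 8.01%, a fold of 1.48 ± 0.14. These arms stood highest, and all 4 of their replicate values lay above those of 3R and X. On 3R the window had 5.55% and 8.57% and the body 4.44% and 7.76%, which is a fold of 1.18 ± 0.10 with 1.25 in replicate 1 and 1.10 in replicate 2. On X the window had 4.27% and 8.87% and the body 4.34% and 11.8%. The X folds were 0.98 and 0.75, with a mean of 0.87 ± 0.16, so the X window lay at or under its body and the mean differed from 1 by less than the SD. Counting clusters per Mb instead of cover gave the same order of arms, with folds of 1.61 ± 0.13 on 2L, 1.35 ± 0.18 on 3L, 1.10 ± 0.05 on 3R and 0.86 ± 0.21 on X. By this count the X replicates lay on either side of 1, at 1.01 in replicate 1 and 0.71 in replicate 2. The direction on X and on 3R depended on the width of the window. With a window of 2 Mb the cover fold became 1.44 on X and 0.87 on 3R, since the neighbouring 1 to 2 Mb was covered to 7.82% and 22.9% in replicates 1 and 2 on X, and to 2.74% and 4.49% on 3R.

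**Figure D2:**
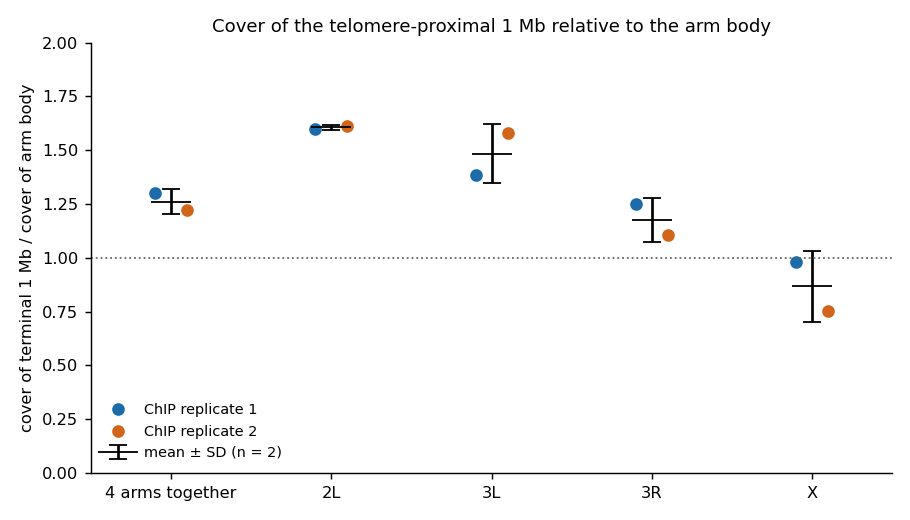
Fold of cover in the telomere-proximal 1 Mb over the body of the same arm (linear axis), for 4 arms together and each arm. Points are ChIP replicates 1 and 2, the bar is the mean and the whiskers the SD (n = 2), and only X lies below the dotted line at 1 in both replicates.

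The terminal windows of 2L and 3L lay far below the centromere-proximal ends of their own assembled arms, and all 4 lay below chromosome 4. The centromere-proximal 1 Mb was covered to 38.9% and 68.6% on 2L in replicates 1 and 2, which is 5.65 and 5.48 times its terminal window. On 3L it was covered to 29.5% and 68.5%, or 4.61 and 5.40 times the terminal window. On 3R the ratio was smaller, at 1.11 and 1.83. On X it was 0.76 and 1.45, so that the centromere-proximal and terminal windows changed order between replicates. These ratios concern the assembled arms only. Heterochromatin on separate scaffolds, such as 3LHet and 3RHet, lies outside these windows, so the ratios do not describe the whole pericentric sequence of an arm. Chromosome 4, the small autosome that is largely heterochromatic, had 6.81 and 6.04 times the cover of the 4 terminal windows together.

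Ranked among consecutive 1 Mb windows counted from the telomeric end, with the centromere-proximal 3 Mb left out, the terminal window stood near the top on 2L and 3L and in the middle on 3R and X. On 2L it ranked 3 of 20 in each replicate. Its mean cover of 9.70 ± 3.97% (SD, n = 2) compared with a median of 6.12% for the other 2L windows and a highest value of 14.9% at 10 to 11 Mb from the end. On 3L it ranked 4 of 21 in replicate 1 and 2 of 21 in replicate 2, with a mean of 9.54 ± 4.44% against a median of 5.71% elsewhere. On 3R the ranks were 8 and 10 of 24, and the mean of 7.06 ± 2.14% compared with a median of 6.14%. On X the ranks were 9 and 14 of 19, and the mean of 6.57 ± 3.25% compared with a median of 7.68%. The window next to it on X, at 1 to 2 Mb, had the highest mean cover of that arm, 15.4%. The SDs are wide because the level of cover differed between the lists in every window, while the ranks were taken within each list.

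**Figure D3:**
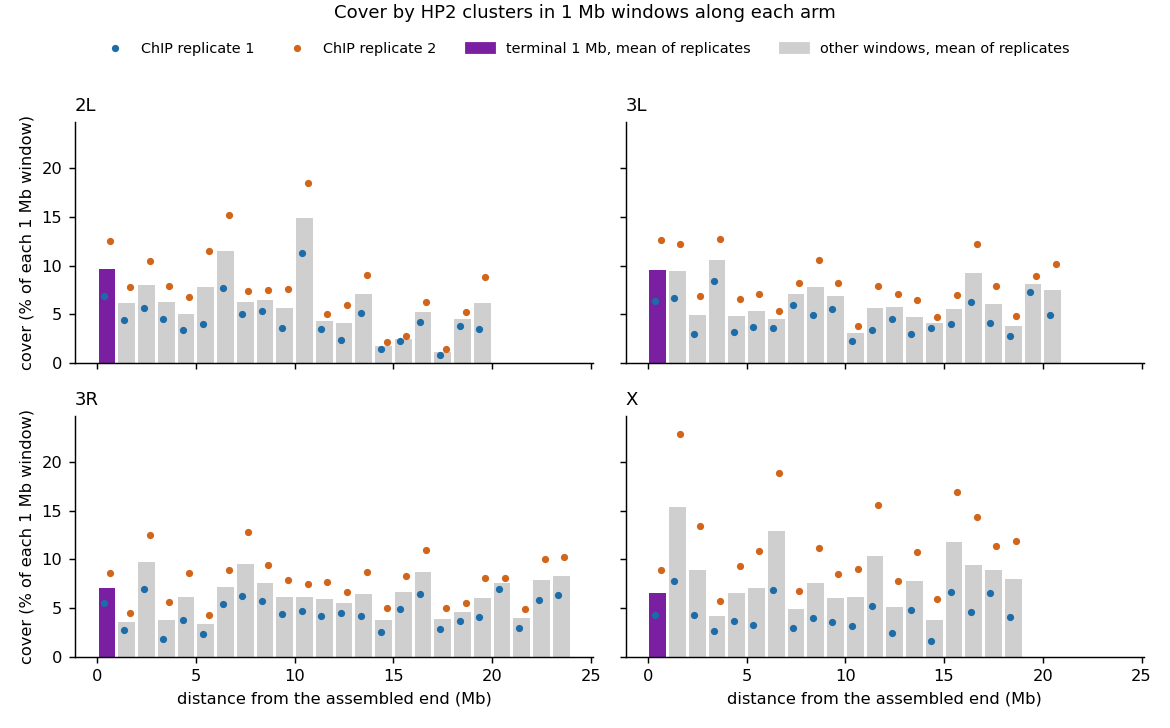
Cover by HP2 clusters (%) in consecutive 1 Mb windows from the telomeric end (x axis, Mb), without the centromere-proximal 3 Mb. Bars are means of the ChIP replicates, points are the replicates, and the terminal window (purple) ranks high on 2L and 3L but is exceeded by the next window on X.

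With distance from the assembled end, cover did not fall or rise steadily. Over the 4 arms together the terminal 100 kb had a cover of 5.81% in replicate 1 and 9.05% in replicate 2, and the other 900 kb 5.77% and 10.8%. The fold was 1.01 in replicate 1 and 0.84 in replicate 2, with a mean of 0.92 ± 0.12 (SD, n = 2), which differed from 1 by less than the SD. In the higher-scoring 50% of each list its direction turned, to 1.41. On 2L the terminal 100 kb lay below the rest of the window in both replicates, with a fold of 0.64 ± 0.05, and likewise on 3L, with 0.66 ± 0.23. On 3R it was 1.59 in replicate 1 and 1.05 in replicate 2, and the mean of 1.32 ± 0.38 differed from 1 by less than the SD. On X it was 1.84 in replicate 1 and 0.90 in replicate 2. In the combined list the fold was 0.61 on 2L, 0.57 on 3L, 0.62 on 3R and 1.36 on X, so 3R went the other way there. By 100 kb bins the mean cover was lowest at 900 to 1000 kb, with 2.27 ± 1.07%, and at 700 to 800 kb, with 2.73 ± 1.37%. It was highest at 800 to 900 kb, between them, with 12.2 ± 6.19%, and it was from 11.0 to 11.3% in the 3 bins between 300 and 600 kb. The 100 to 200 kb bin, next to the terminal one, had 5.27 ± 1.99%. The terminal bin held 27 members, against 60 in the densest bin at 300 to 400 kb.

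Cover varied widely among the 10 bins of each arm. The mean cover of a bin ran from 0 to 23.2% on 2L, 0.93 to 17.2% on 3L, 0 to 18.4% on 3R and 0 to 16.8% on X. The 818 bins of the bodies ran from 0 to 50.95%. The median was 7.52% in the windows and 5.05% in the bodies, and 8 of the 40 window bins lay above 14.4%, the 90th percentile of the body bins. Bins with a cover of 0 were no more frequent in the windows than in the bodies. They made up 22.5% of the window bins and 23.2% of the body bins in replicate 1, and 7.5% and 14.4% in replicate 2. Replicates ranked the 40 bins alike, with Spearman's rho of 0.86, and 0.85 over the body bins. These correlations are across bins of shared libraries and are given as a description. Replicate 2, the longer list, had the higher cover in 34 of the 40 bins. No bin was without a combined cluster, and 30 of the 40 held a member present in both replicates. The same counts are not at hand for the body bins, so they only describe the windows.

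**Figure D4:**
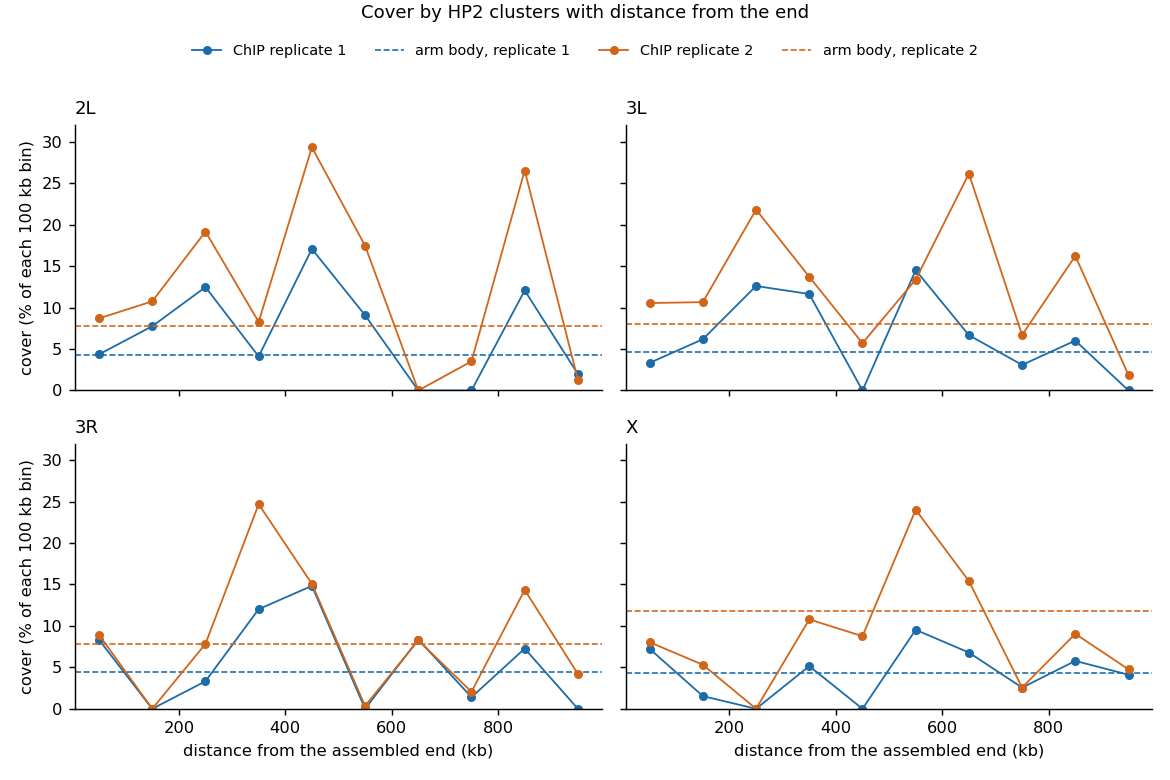
Cover by HP2 clusters (% of each 100 kb bin) against distance from the assembled end (kb) on 4 arms. Points are ChIP replicates 1 and 2, dashed lines are the cover of the body of that arm in the same replicate, and each arm alternates between bins above and far below its lines.

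On 2L the highest bin was 400 to 500 kb from the end, with a cover of 17.1% in replicate 1 and 29.3% in replicate 2, with 21 members 7 of them present in both replicates. Only 200 kb further, the bin at 600 to 700 kb had 5 combined members and a cover of 0 in both replicate lists. Replicate 1 had no cluster for 250 kb, between 570.1 and 820.6 kb from the end, and replicate 2 none for 169 kb, between 570.4 and 739.3 kb. Both lists thus ended at nearly the same position, and replicate 2 resumed earlier. At 800 to 900 kb the cover was 12.1% and 26.5%, with 14 members.

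On 3L the highest bin was at 200 to 300 kb, with 12.6% in replicate 1 and 21.8% in replicate 2 and 13 members. The bin with most members, 23, was at 600 to 700 kb, where the replicates differed most, with 6.67% and 26.2%. The lowest was at 900 to 1000 kb, at 0 and 1.85%, with 5 members. Replicate 1 had its longest empty stretch, 141 kb, from 364 to 505.2 kb from the end. In replicate 2 the longest was 97.9 kb, in another place, from 890.3 to 988.3 kb.

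On 3R the highest bin was at 300 to 400 kb, with 12.0% in replicate 1 and 24.7% in replicate 2, 22 members and 3 in both. At 400 to 500 kb the replicates had almost equal cover, 14.8% and 15.1%. The lowest bin was at 100 to 200 kb, with 2 combined members and a cover of 0 in each replicate. It lay in an empty stretch that had nearly the same limits in both lists, from 94.5 to 266.3 kb in replicate 1 and from 94.7 to 265.5 kb in replicate 2.

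On X the highest bin was at 500 to 600 kb, with 9.53% in replicate 1 and 24.0% in replicate 2. It held 16 members, 6 of them in both replicates, the largest such count on X. The lowest was at 200 to 300 kb, with 1 combined member and a cover of 0 in both replicates. The stretch without clusters around it also agreed between the lists, from 174.0 to 322.9 kb in replicate 1 and from 174.4 to 322.7 kb in replicate 2. How much of these stretches could be mapped by the reads cannot be read from the lists and was not tested.

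At the outermost assembled sequence the arms differed in how close to the end the clusters began. On X the first combined cluster started at position 110, and the cover of the first 20 kb was 28.9% in replicate 1 and 40.1% in replicate 2, with 5 members. On 3R the first 20 kb was covered to 13.3% and 13.75% by 1 member, and on 2L to 11.0% and 11.7% with 3 members. On 3L the first 44.6 kb held no combined cluster and the first 50 kb none of either replicate. Over the first 20 kb of the 4 arms together the cover was 13.3% in replicate 1 and 16.4% in replicate 2, and X contributed most of it. This length of 20 kb was chosen after the positions were seen. Over the first 50 kb it was 8.98% and 10.0%.

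In each of the 4 arms, the outermost cluster present in both replicates lay within 60 kb of the assembled end. This limit was set after the positions were seen, and the 4 windows of 1 Mb held 80 such clusters. The combined score of the outermost one lay above the median of such clusters in each arm. The score is the authors' own value for each cluster. The sources used here do not give its scale, and it is compared only within a list. Of the 80 members in both replicates, 10 held more than 1 replicate 1 cluster and 8 more than 1 replicate 2 cluster, and the replicate score given for such a member is that of the cluster with the most sequence inside it. On 2L this cluster was at 2L:17562-19910, with a combined score of 0.948, and scores of 0.851 and 1.06 in replicates 1 and 2. Another in both replicates came next, at 2L:20406-23366, with 0.766. On 3L it was at 3L:51058-58090, 7.03 kb wide, with 0.799, and scores of 0.522 and 1.09 in replicates 1 and 2. On 3R it was at 3R:27892418-27895318, with 0.959, and 0.850 and 1.15. On X it was at X:4648-11228, 6.58 kb wide and the widest member of that arm, with 0.860, and 0.728 and 1.06. This X member held a second replicate 1 cluster, at X:9573-10999, whose score of 1.35 ranked 2 of the 106 replicate 1 clusters in the windows, while the wider one, at X:5111-9465, ranked 20. The median combined score was 0.580 over the 80 members in both replicates and 0.535 over the 1316 such clusters of the bodies. By combined score the 4 outermost ranked 13, 20, 12 and 18 of those 80 for 2L, 3L, 3R and X. By replicate 1 score the 3L cluster ranked only 53 of 106, and its 0.522 lay under 0.538, the replicate 1 median of members in both. By replicate 2 score it ranked 20 of 185. What each replicate contributed to its combined score is not known.

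Closer to the end than these, the combined list held clusters that neither replicate list contained. On 2L these were at 2L:11896-12900 and 2L:13358-14680, with scores of 0.346 and 0.276. On X they were at X:110-1816, with a score of 1.18, and X:1840-3086, with 0.546. Of all members in neither replicate, only the outermost 3L cluster exceeded the score at the X end. That 3L cluster, 3L:44622-45622, had a score of 3.05 at a width of 1.00 kb, the highest score of all 383. The same score, equal to 9 decimals, was given to 15 other combined clusters, and all 16 were absent from both replicates, 8 of them on the unplaced sequence U. The other members of the rule for the ends were 3L:59782-60812 (score 0.370, in neither), 3R:27883270-27884284 (0.361, in neither) and 3R:27876580-27880660 (0.625, in both, with 0.509 and 0.783 in replicates 1 and 2, and 0.550 for a second replicate 1 cluster).

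Of the 383 members, 80 were present in both replicates, or 20.9% (exact 95% interval 16.9 to 25.3%). In the whole combined list the share was 22.3%, and in the arm bodies 19.8%, which lies inside the interval of the members. Another 96 members (25.1%) were in replicate 2 only, 16 (4.18%) in replicate 1 only and 191 (49.9%) in neither. Members in replicate 2, alone or with replicate 1, were 176 (46.0%), where the whole combined list had 52.2% and the bodies 45.3%. Members in replicate 1 were 96 (25.1%), against 26.2% of the whole list and 24.8% of the bodies. In neither replicate were 43.9% of the whole combined list and 49.7% of the bodies. Over the 4 arms together the members' shares are thus near those of the bodies in every class. By arm, members in both were 27 of 107 on 2L (25.2%), 19 of 114 on 3L (16.7%), 15 of 84 on 3R (17.9%) and 19 of 78 on X (24.4%). Their intervals overlap, the lowest running from 10.3% on 3L and the highest to 35.4% on X. In the bodies of 2L, 3L, 3R and X the share was 20.7%, 21.1%, 20.4% and 17.2%. The members thus lay above their own body on 2L and X and below it on 3L and 3R. Each body's share was inside the interval of its window. Members in replicate 2 only were 23.1% on X (14.3 to 34.0%), against 32.7% of the X body, which also lies inside the interval.

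Members absent from both replicates were narrow. Their median width was 1.23 kb and 117 of the 191 (61.3%) were narrower than 1301 bp, the narrowest cluster in either replicate list, whereas the combined list goes down to 1001 bp. In the bodies this share was 58.5%. The median width of members in both replicates was 2.92 kb, and none was under 1301 bp. Their median combined score was 0.580, against 0.354 for members in neither, 0.356 in replicate 2 only and 0.337 in replicate 1 only. Among the 256 members of at least 1301 bp, a limit chosen after seeing the data, 31.25% were in both replicates (25.6 to 37.3%), and among such clusters of the bodies 29.1%. The widest member of each arm was 2L:865226-874868 at 9.64 kb, 3R:27432490-27441592 at 9.10 kb, 3L:539528-547048 at 7.52 kb and X:4648-11228 at 6.58 kb. Of all members 17 (4.44%) were 5 kb or wider, against 3.50% of the body clusters, in which the widest reached 22.8 kb.

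**Figure D5:**
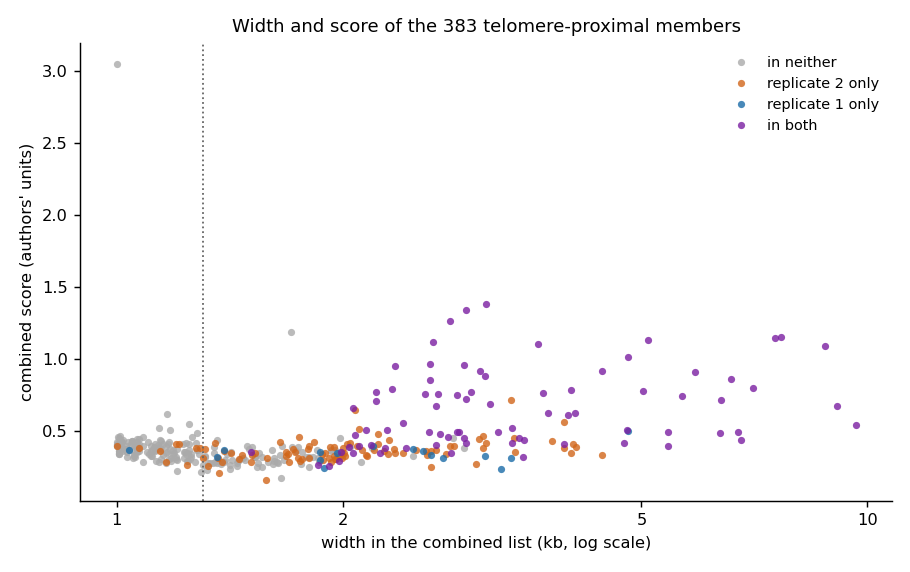
Combined score (authors' units) against width (kb, log axis) for the 383 members, coloured by presence in the replicate lists. The dotted line marks 1301 bp, the narrowest replicate cluster, and members in both lie to its right while 117 of 191 members in neither lie to its left.

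From the side of the replicate lists, 89 of the 106 replicate 1 clusters in the windows were overlapped by a replicate 2 cluster, or 84.0% (75.6 to 90.4%). The share was 86.0% over the whole replicate 1 list and 78.3% over the bodies. By arm it was 29 of 31 on 2L (93.5%), 23 of 28 on 3L (82.1%), 17 of 25 on 3R (68%) and 20 of 22 on X (90.9%). In the bodies of these arms it was 76.5%, 75.7%, 78.4% and 82.8%, so only the 3R window lay below its body. The 2L body lay under the interval of its window (78.6 to 99.2%), and the other bodies lay inside theirs. Of the 185 replicate 2 clusters 83 were overlapped by replicate 1, or 44.9% (37.6 to 52.3%), where the whole list had 41.7% and the bodies 42.9%. Both values of the bodies lie inside the intervals of the windows. The covered sequence shared by the replicates was 180 kb of the 477 kb covered in either, a Jaccard index of 0.38, and 0.35 in the bodies. It was 0.44 on 2L, 0.32 on 3L, 0.37 on 3R and 0.39 on X.

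Scores in the terminal windows were close to those of the bodies. The median score was 0.521 in the windows and 0.523 in the bodies in replicate 1, and 0.539 and 0.549 in replicate 2. The difference, windows minus bodies, was -0.00179 and -0.00935, with a mean of -0.00557 ± 0.00534 (SD, n = 2), and in the higher-scoring 50% of each list its sign turned, to 0.0656. In the combined list the medians were 0.367 and 0.369. Clusters of the windows found in the other replicate had the higher scores, with a median of 0.537 against 0.487 for the other 17 in replicate 1, and 0.761 against 0.498 for the other 102 in replicate 2. Across the 80 members in both, the replicate scores had a Spearman's rho of 0.70, which is a description over clusters that share libraries.

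The 3 highest-scoring members of each arm present in both replicates ranked from 152 to 720 among the 2828 combined clusters in both replicates, and 3 of these 12 were among the 282 highest. On 3L they were 3L:318018-321116, with a combined score of 1.38 and 1.17 and 1.75 in replicates 1 and 2, then 3L:290956-293732 (1.26) and 3L:539528-547048 (1.15). The first of these had the best rank of any member, 152, and the others ranked 216 and 313. On 3R the leading cluster was 3R:27229360-27232280, with 1.34 in the combined list and 1.12 and 1.71 in the replicates, at rank 168. It was followed by 3R:27040482-27049256, 8.78 kb wide (1.09, rank 386), and 3R:27287376-27289988 (0.962, rank 601). On 2L they ranked 309, 332 and 346. The first was 2L:537978-545652, with 1.15 and the highest replicate values of any member, 1.38 and 2.06, and the others were 2L:849516-854614 (1.13) and 2L:489212-491846 (1.12). On X they were X:652246-655888 (1.10, rank 366), X:819258-824056 (1.01, rank 523) and X:656690-662580 (0.904, rank 720), and the first and the last are neighbours. None of these 12 lay in the terminal 100 kb, which held only 7 of the 80 members in both replicates. Whether their absence there departs from that small share was not tested.

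Most members had a near neighbour. The median gap between neighbouring members was 3.46 kb, and 232 of 379 gaps (61.2%) were at most 5 kb, against 59.9% of the gaps in the bodies, where the median was 3.22 kb. The longest gap between combined clusters was 100 kb on X, 89.8 kb on 3R, 58.8 kb on 2L and 58.5 kb on 3L. In the bodies, which are much longer than the windows, it was 148 kb on X, 212 kb on 3R, 394 kb on 2L and 221 kb on 3L.

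At the limit of 1 Mb, the last member and the first cluster beyond it were in neither replicate on 2L and X and differed in presence on 3L and 3R. On 2L they were 2L:969804-971062 inside (score 0.458) and 2L:1006472-1007494 outside (0.551), both in neither replicate. On 3L they were 3L:994552-995648 (0.354, in neither) and 3L:1006900-1008436 (0.196, in replicate 1 only). On X they were X:972822-973868 (0.416) and X:1021114-1022220 (0.357), both in neither. On 3R the last member was 3R:26911286-26913286 (0.377, in replicate 2 only), and the first cluster outside, 3R:26899984-26908860, was 8.88 kb wide, in both replicates (0.844) and straddled the limit, with its midpoint beyond it.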

How the data were processed

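HP2 was mapped by ChIP-seq in 2 ChIP libraries, each with an input. Reads were aligned with Bowtie 0.12.7, per the submitters' processing notes, and positions refer to release 5 of FlyBase, per the file headers. The authors deposited a list of enriched regions for each ChIP library and 1 for the replicate set, with a start, an end and a score for each region. Start and end are 1-based. The sources used here do not give the caller, its threshold, the scale of the score or the way the replicates were combined.

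Cover was computed on merged clusters with Python 3.11.15, numpy 2.4.6, pandas 2.3.3 and SciPy 1.17.1, after checks of the counting on simulated data. Clusters were assigned by midpoint, and intervals of shares are exact Clopper-Pearson. With 2 replicates values are given with their SD and no test. The depth is unknown, since the lists hold no read counts, and 2R was not used here as an arm of the comparison.

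The windows, the arm bodies and the rules were chosen with earlier results of these data known. Named are, for each arm, the 3 members nearest the end, the 3 highest-scoring in both replicates, the widest, those at the 1 Mb limit, and the bins of highest and lowest cover. Others named, such as the outermost member in both replicates, were chosen after their positions or values were seen. Alternatives were other window and bin sizes, stricter overlap, the higher-scoring 50%, lists of equal length, merging within 1 kb, other bodies and leaving out a replicate.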

Additional observations from a re-analysis of the deposited data

Results flagged for a closer look

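The cover of the terminal 1 Mb relative to its arm body lay below 1 in both replicates on X, with a mean fold of 0.867 (0.98 in replicate 1 and 0.75 in replicate 2). On 2L, 3L and 3R it lay above 1 in both, with means of 1.61, 1.48 and 1.18. The difference between X and the other arms was not tested. It depends on the window, since at 2 Mb the fold was 1.44 on X and 0.87 on 3R. The shared direction of the replicates on X rests on the 0.98 of replicate 1. That value became 1.02 with bodies without only the centromere-proximal 1 Mb, and 1.01 in clusters per Mb.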

How the results depend on the processing

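Of 51 alternative values that kept both replicates, 24 stayed within the spread between replicates or the interval of the share, and 6 lay on the other side of no difference. In 3 of these 6 the replicates had shared a direction before. The cover fold of 3R and X reversed with a window of 2 Mb, to 0.87 and 1.44, and the median score difference became 0.0656 in the higher-scoring 50% of each list. With a window of 500 kb the cover fold was 1.39 over 4 arms, 2.04 on 2L, 1.60 on 3R and 0.60 on X. On 2L it was 1.31 at 2 Mb, 1.78 in the higher-scoring 50%, 1.58 with lists of equal length and 1.59 with bodies without only the centromere-proximal 1 Mb. On 3L it was 1.64 in the higher-scoring 50% and 1.27 with those bodies. The density fold was 1.18 in the higher-scoring 50%, 1.19 with equal lists, 1.17 with clusters merged within 1 kb, 1.36 at 500 kb, 1.27 at 2 Mb and 1.18 with those bodies. The terminal 100 kb fold was 1.41 in the higher-scoring 50%, 1.22 with equal lists, 1.27 for a terminal bin of 50 kb and 0.75 for 200 kb, so it crossed 1 in 3 of these 4, and it was 1.01 without replicate 2. A reciprocal overlap of 50% gave 16.2% of members in both replicates and 72.6% of replicate 1 clusters overlapped, a gap of up to 500 bp 25.3% of members, and members of at least 1301 bp, an alternative added later, 31.25%. The causes were not tested, except that the shares fall or rise with the overlap rule by construction. Leaving out a replicate gave 1.22 to 1.30 for the cover fold over 4 arms. With 2 replicates such a value always lies within 1 SD of the mean, so it is no sign of stability. No paired analysis was possible because the inputs have no list of their own and the folds come from no test.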

Other observations

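Members made up 2.83% of the combined clusters present in both replicates (80 of 2828), and 3 of the 282 of them with the highest scores, or 1.06%. That reference is the whole combined list, which also holds chromosome 4 and centromere-proximal sequence. The share among the highest scores was not computed for the arm bodies alone. Among clusters in both replicates the median combined score was 0.580 in the windows and 0.535 in the bodies. The combined list overlapped all 106 replicate 1 clusters of the windows and 181 of the 185 of replicate 2.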
